A study of Mus musculus with 6 samples.

Results

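The expression of 10 genes of scavenger receptors and macrophage lipid handling was followed in macrophages grown from the marrow of mice that had breathed cigarette smoke or room air. They are the receptors Cd36, Msr1, Marco and Mrc1, the cholesterol exporters Abca1 and Abcg1, the apolipoprotein Apoe, the nuclear receptors Nr1h3 and Pparg, and the lipid droplet protein Plin2. The 10 genes were named for their roles, with earlier results of these data known, and were picked by symbol from the 19386 genes of the authors' deposited table. All 10 carried an adjusted p there, so all 10 had passed its filter on low counts. Splicing was followed in the same genes through 9 of 10376 events of JuncBASE, which sorts splice choices by type from the reads across junctions, and through 4 of 3887 retained introns compared by rMATS.

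The animals were wild-type C57BL/6 mice, and exposure was the only labelled difference between the groups, with 3 libraries in each. Marrow depleted of erythrocytes was cultured for 11 days in L929-conditioned medium, a source of the colony-stimulating factor on which macrophages depend. The macrophages themselves were therefore not described as exposed: smoke or air was given to the animal. Per the labels' protocols marrow was divided mouse by mouse, but no label ties a library to a mouse. Age, sex, dose and length of exposure are not labelled either. The p-values measure spread between libraries only. Those for expression come from the authors' fit to 24 libraries, of which 18 are not analysed here.

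Macrophages take up modified lipoproteins, dying cells and microbes through scavenger receptors, which bind negatively charged ligands of many kinds. The cholesterol that arrives this way is stored as esters in lipid droplets or handed to lipoprotein particles by ATP-driven exporters. The nuclear receptors LXR alpha, encoded by Nr1h3, and PPAR gamma, encoded by Pparg, sense sterol and fatty acid derivatives and drive the exporter genes and Cd36. Lung macrophages that carry much of this lipid are known as foam cells, and the same genes serve surfactant clearance there, although the cells studied here were grown in a dish from marrow.

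The transcripts on which the splicing results turn were the 2 ends of Msr1 and the junctions of the 5' untranslated exons of Cd36. In Msr1 (chromosome 8, minus strand, GRCm38) an exon at chr8:39608085-39608138 is joined either to a proximal last exon or to a distal exon. Both joins are shown as transcript sequence 5' to 3' from the GENCODE M21 transcripts, with the shared exon in lower case and the bases after the join in capitals. Msr1-202 reads 11 bases to its stop codon TAA, and Msr1-201 is shown for the first 60 bases of the distal exon at chr8:39589290-39589478.
Msr1-202: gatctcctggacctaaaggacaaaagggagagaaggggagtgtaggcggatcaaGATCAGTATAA
Msr1-201: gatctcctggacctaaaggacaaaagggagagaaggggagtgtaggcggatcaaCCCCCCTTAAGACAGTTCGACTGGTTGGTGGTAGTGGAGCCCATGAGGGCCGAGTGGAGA
Msr1-202 holds 1062 coding bases in 9 exons, of which 8 lie after the join, and Msr1-201 holds 1374 coding bases in 10 exons, of which 320 lie after it in 2 exons. Those 320 bases encode the cysteine-rich domain that distinguishes the type I receptor from the type II receptor.

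In Cd36 (chromosome 5, minus strand, GRCm38) the exon at chr5:17829456-17829549, which comes before the coding start, can begin 4 bases late, and the exon after it, chr5:17828775-17828984, can begin 3 bases late. The junctions are shown 5' to 3' from the GENCODE M21 transcripts, with the bases that the late start leaves out in capitals: GTAG at the join of a 54-base cassette exon (chr5:17835618-17835671) to the former exon, and TAG at the join to the latter. All of these bases are untranslated.
Cd36 cassette to next exon: agcctttcaaagGTAGtttacaaatgat
Cd36 coding exon, longer form: tgcatgaattagTAGaaccgggccacg
Cd36 coding exon, shorter form: tgcatgaattagaaccgggccacg

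By the authors' deposited table none of the 10 genes passed an adjusted p of 0.05, where 7.69% of the 12082 tested genes did, 4.15% higher and 3.53% lower after smoke. Of the estimates 6 were higher and 4 lower after smoke, with a median log2 fold change of 0.19 against -0.0029 over all tested genes. Cd36 and Mrc1 were the lowest, at -0.85 and -0.71 on the log2 scale, and Marco and Apoe the highest, at 1.29 and 0.99. At an unadjusted p under 0.05, 3 of the 10 passed (Mrc1, Nr1h3 and Cd36), where 22.8% of the tested genes did, and at an adjusted p under 0.1, 1 of the 10 passed (Mrc1), where 12.8% did. The standard errors of the 10 in the authors' deposited table ran from 0.166 to 1.00 with a median of 0.329, against a median of 0.207 over all tested genes. Expression values are the authors' group means, over 3 libraries each, of counts divided by size factors. Single libraries could be read only for genes with a group mean below 5, Marco among the 10, so whether the groups overlap can be said for splicing and for Marco but not for the other genes, and each error below is the authors' standard error from a fit to 24 libraries, of which 18 are not analysed here.

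**Figure D1:**
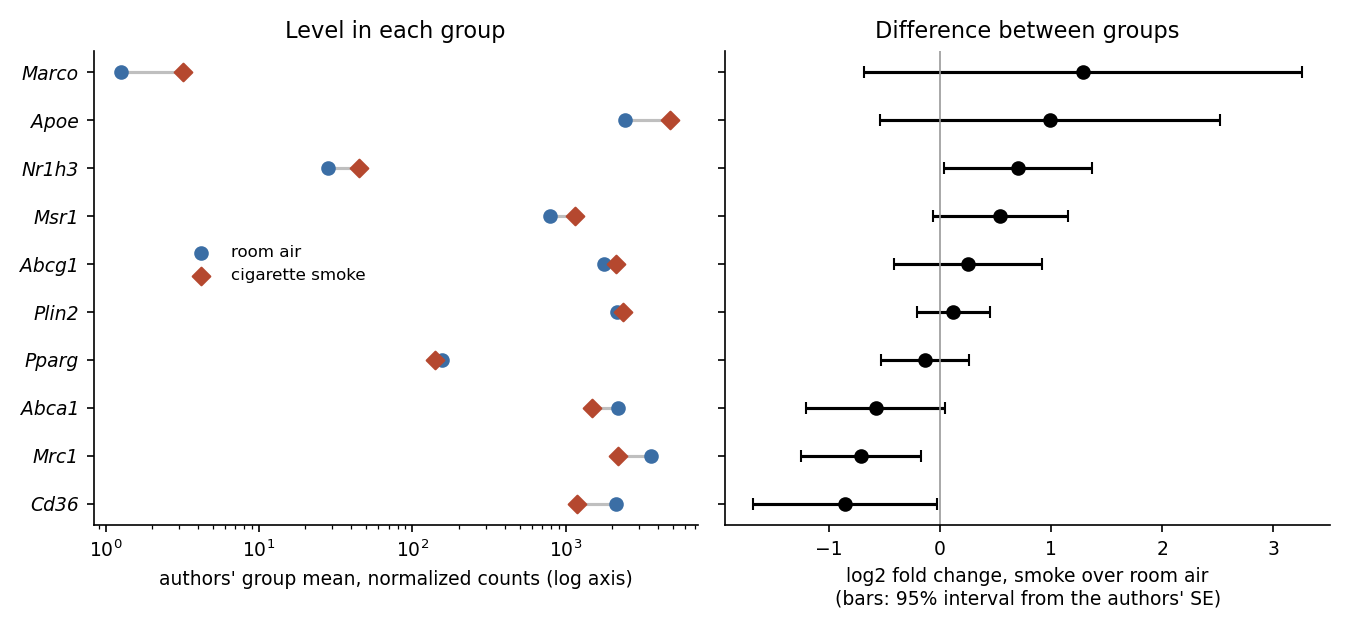
Left, the authors' group mean of normalized counts (log axis) for each of the 10 genes in room air and cigarette smoke. Right, the log2 fold change of smoke over room air with its 95% interval; only Cd36, Mrc1 and Nr1h3 have an interval that leaves out 0, and none of the 10 passed an adjusted p of 0.05.

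Of the receptors, Cd36, a class B scavenger receptor that takes up oxidized LDL and long-chain fatty acids, had the lowest ratio of smoke to room air, although none of the receptors passed the test. In the authors' deposited table Cd36 (ENSMUSG00000002944.15, chr5:17781690-17888801) stood at 2142 normalized counts in room air and 1189 in smoke. That is 44.5% less, or -0.85 on the log2 scale (SE 0.42, 95% interval -1.68 to -0.02), and the adjusted p was 0.204. Mrc1, the mannose receptor or CD206, clears glycoproteins that end in mannose and is used as a marker of alternatively activated macrophages. In the authors' deposited table Mrc1 (ENSMUSG00000026712.3, chr2:14229392-14332057) stood at 3601 normalized counts in room air and 2196 in smoke. The difference for Mrc1 there was -0.71 on the log2 scale (SE 0.27, 95% interval -1.25 to -0.17), with an unadjusted p of 0.00943 and an adjusted p of 0.0836. It was the smallest p among the 10 genes and missed the threshold of 0.05.

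Msr1 lay on the other side of 0. Msr1 encodes scavenger receptor A, a class A receptor for acetylated and oxidized LDL and for bacterial surfaces. In the authors' deposited table Msr1 (ENSMUSG00000025044.16, chr8:39581685-39642673) stood at 785 normalized counts in room air and 1143 in smoke, 45.6% more. The log2 difference for Msr1 by the authors' deposited table was 0.54 (SE 0.31, 95% interval -0.06 to 1.15) with an adjusted p of 0.285. Cd36 and Msr1, both receptors for oxidized LDL, thus had estimates of opposite sign, and neither differed from 0 at an adjusted p under 0.05; the difference between the 2 genes was not tested.

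Marco, a class A receptor found chiefly on resident macrophages of the lung and spleen, was close to absent. In the authors' deposited table Marco (ENSMUSG00000026390.7, chr1:120474538-120505024) stood at 1.26 normalized counts in room air and 3.20 in smoke, and a log2 difference of 1.29 (SE 1.00, 95% interval -0.68 to 3.26, adjusted p 0.477). It passed the low-count filter because its mean over all 24 libraries was 62.0. Means this low are sums of a few whole reads, each worth a fixed amount per library, so the reads behind them could be recovered. Marco had 5, 2 and 0 reads in the shallowest, the middle and the deepest room air library, and 2, 7 and 0 in the smoke libraries in the same order. The deepest library of each group thus held no Marco read, and the reads of the groups overlap. Over all libraries 7 reads in room air stood against 9 in smoke, a ratio per depth of 1.75 with an exact 95% interval of 0.578 to 5.51 that covers counting error only.

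Neither lipid exporter passed the test. Abca1, which passes cholesterol and phospholipid to lipid-poor apolipoprotein A-I, stood at 2196 normalized counts in room air and 1476 in smoke in the authors' deposited table (ENSMUSG00000015243.4, chr4:53030787-53159895). Its log2 fold change there was -0.57 (SE 0.32, 95% interval -1.20 to 0.05) with an adjusted p of 0.275. Abcg1, which loads cholesterol onto mature HDL, stood at 1785 and 2126 normalized counts in the authors' deposited table (ENSMUSG00000024030.6, chr17:31057675-31117988). Its log2 fold change there was 0.25 (SE 0.34, 95% interval -0.41 to 0.92) with an adjusted p of 0.720. These exporters are known joint targets of LXR, and their intervals overlap between -0.41 and 0.05; the difference between them was not tested.

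Apoe, the apolipoprotein that macrophages secrete to carry cholesterol away, had the largest gain in counts and the second widest error. In the authors' deposited table Apoe (ENSMUSG00000002985.16, chr7:19696109-19699188) stood at 2426 normalized counts in room air and 4811 in smoke, a ratio of 1.98. The log2 difference for Apoe by the authors' deposited table was 0.99 with an SE of 0.78, a 95% interval from -0.54 to 2.52 and an adjusted p of 0.485. The interval thus runs from a decrease to a several-fold increase.

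The nuclear receptors were the least abundant genes of the 10 after Marco. Nr1h3, which encodes LXR alpha, the oxysterol sensor that drives Abca1, Abcg1 and Apoe, stood at 28.3 normalized counts in room air and 45.0 in smoke in the authors' deposited table (ENSMUSG00000002108.10, chr2:91184061-91202834). Its log2 fold change there was 0.70 (SE 0.34, 95% interval 0.04 to 1.37), with an unadjusted p of 0.0387 and an adjusted p of 0.190. The annotation places a processed transcript, Gm13783, on the same strand inside Nr1h3, and how reads shared by the pair were counted is not given in the sources used here. Pparg, which encodes the fatty acid sensor PPAR gamma, a known driver of Cd36, stood at 155 and 140.3 normalized counts in the authors' deposited table (ENSMUSG00000000440.12, chr6:115360951-115490399). Its log2 fold change there was -0.13 (SE 0.20, 95% interval -0.53 to 0.26) with an adjusted p of 0.754. An antisense gene, Gm44079, lies within Pparg, and whether counting used the strand is likewise not given.

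Plin2, which coats lipid droplets and is a usual measure of lipid loading, had the most precise estimate of the 10. In the authors' deposited table Plin2 (ENSMUSG00000028494.12, chr4:86648386-86670060) stood at 2163 normalized counts in room air and 2357 in smoke, a log2 difference of 0.12 (SE 0.17, 95% interval -0.20 to 0.45, adjusted p 0.721).

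Per kilobase of the longest annotated transcript, which allows levels to be compared between genes, Apoe was the most abundant in the authors' deposited table at 1723 normalized counts per kb in room air, followed by Plin2 at 1146, Mrc1 at 670.1 and Cd36 at 630.3. Abcg1 at 306, Msr1 at 216 and Abca1 at 214 formed the middle of the order, and Pparg at 73.1, Nr1h3 at 14.3 and Marco at 0.654 its lower end. After smoke the same quantity in the authors' deposited table was 3417 for Apoe, 1248 for Plin2, 409 for Mrc1, 364 for Abcg1, 349.9 for Cd36, 314 for Msr1, 144 for Abca1, 66.0 for Pparg, 22.6 for Nr1h3 and 1.66 for Marco. Between the groups only Cd36 and Abcg1 exchanged places. Cd36 stood next to Mrc1 in room air and between Abcg1 and Msr1 after smoke. No spread over libraries goes with these levels, so neighbours in the order cannot be called different.

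The signs of the estimates went with the composition of the transcripts. Of the 6 genes with a positive log2 fold change, all but Msr1 had a GC content of at least 52.1% in the longest transcript, from 52.1% in Plin2 to 59.5% in Apoe. The 4 with a negative one had at most 50.2%, from 38.4% in Cd36 to 50.2% in Pparg. Msr1, at 38.4%, was the exception. The rank correlation (Spearman's rho) between log2 fold change and GC content was 0.709 over the 10 genes and 0.483 over all tested genes, and with transcript length -0.564 and -0.448. These are descriptions across genes of the same libraries, which are not independent replicates. After a smooth trend in GC content and length over 12071 genes was taken out, the differences were smaller for Cd36 (-0.63), Mrc1 (-0.49), Abca1 (-0.30), Nr1h3 (0.42), Apoe (0.61) and Marco (1.06). They were larger for Msr1 (0.78), Abcg1 (0.30) and Pparg (-0.25), and Plin2 changed sign to -0.06. None of the 10 had an adjusted p under 0.05 after this step either, where 1.28% of the genes did, and the lowest was 0.223 for Msr1. The part of composition in the differences was not tested.

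**Figure D2:**
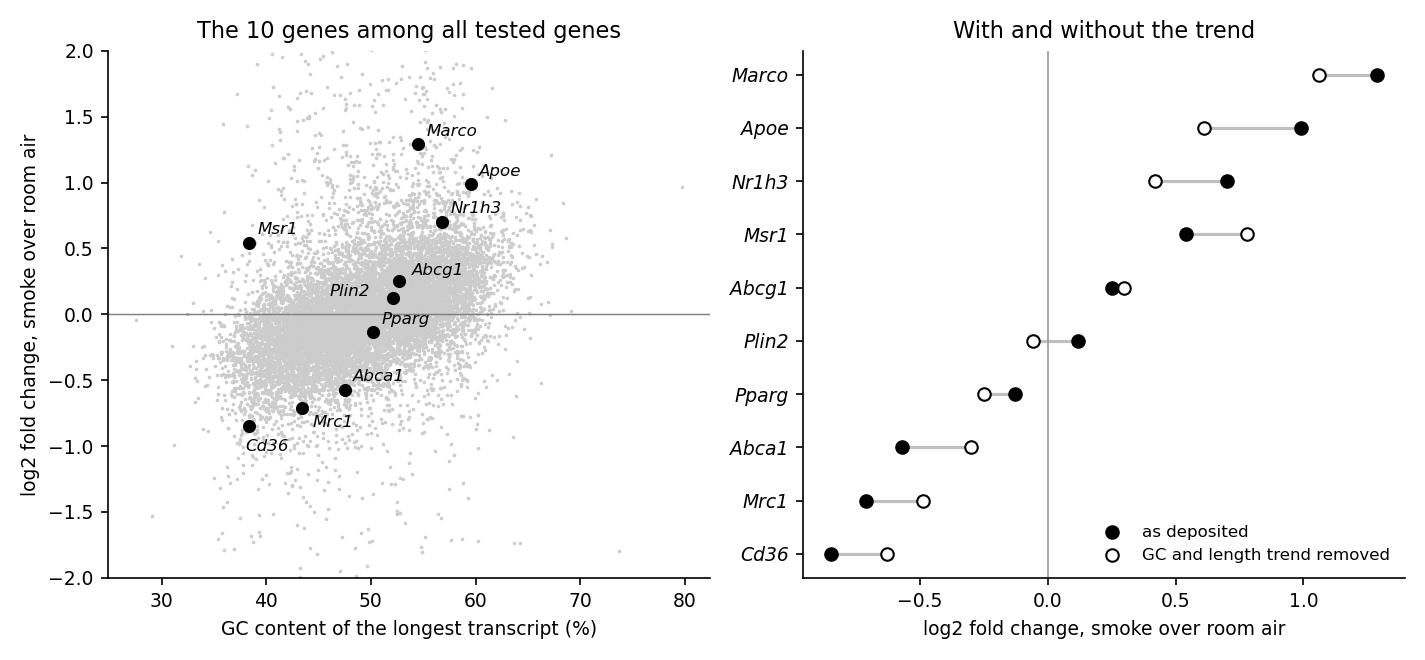
Left, log2 fold change of smoke over room air in the authors' table against GC content of the longest transcript, for all tested genes (grey, those beyond 2 in either direction not drawn) and the 10 genes (black). Right, the same fold changes as deposited (filled) and with the trend in GC content and length removed (open); Msr1 moves away from 0 and Plin2 crosses it.

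Genes that work beside the 10 were counted in 5 lists of 95 genes in all. The authors' deposited table listed 86 of them and tested 73, and 3 (4.11%) passed an adjusted p of 0.05, 2 higher and 1 lower, against 7.69% of all tested genes. Among scavenger and lipoprotein receptors 1 of 15 tested genes passed, Stab1, which encodes the class H scavenger receptor stabilin-1. By the authors' deposited table Stab1 fell from 2783 to 1827 normalized counts, or by 0.61 on the log2 scale (SE 0.16, adjusted p 0.00561), and it also passed with the GC and length trend removed (adjusted p 0.0235). The list as a whole had a median of 0.06, with 9 genes higher and 6 lower, and with the trend removed -0.09, with 6 higher and 9 lower.

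No gene passed among the 21 tested for cholesterol efflux and LXR targets (median -0.01, 9 higher and 12 lower), the 19 for fatty acid uptake and PPAR targets (9 higher and 10 lower) or the 12 of the lipid droplet (median 0.24, 11 higher and 1 lower). With the trend removed the lipid droplet list had a median of 0.14, with 9 higher and 3 lower. Lpl, the secreted lipoprotein lipase and the most abundant of the first list, stood at 8532 normalized counts in room air and 8779.9 in smoke by the authors' deposited table, a log2 difference of 0.04 (SE 0.29, adjusted p 0.959). Ucp2, a mitochondrial carrier and the most abundant of the fatty acid list, stood at 2008 and 2243 there (0.16, SE 0.19, adjusted p 0.671). Plin3, which coats nascent lipid droplets, stood at 563 and 589 in the authors' deposited table (0.06, SE 0.16, adjusted p 0.873).

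Of 6 tested genes found with Mrc1 in alternatively activated macrophages, 2 passed and were higher and none was called lower in the authors' deposited table. Of all tested genes there, 4.15% were called higher and 3.53% lower. The list held 11 genes, of which 8 were listed. The tested genes had a median of 0.74, with 5 higher and 1 lower, and Stat6 (-0.00) and Tgm2 (0.02) were near 0. With the trend removed the median was 0.64, with 4 higher and 2 lower. Clec10a, a galactose-binding lectin, rose from 206 to 505 normalized counts by the authors' deposited table, a log2 difference of 1.30 (SE 0.42, adjusted p 0.0343). Klf4, a transcription factor, rose from 53.9 to 97.3 there, a log2 difference of 0.91 (SE 0.27, adjusted p 0.0176). With the GC and length trend removed the log2 differences were 1.20 for Clec10a (adjusted p 0.138) and 0.76 for Klf4 (adjusted p 0.151), so neither passed. The estimate for Mrc1, -0.71 on the log2 scale, did not pass (adjusted p 0.0836), and its difference from these genes was not tested.

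**Figure D3:**
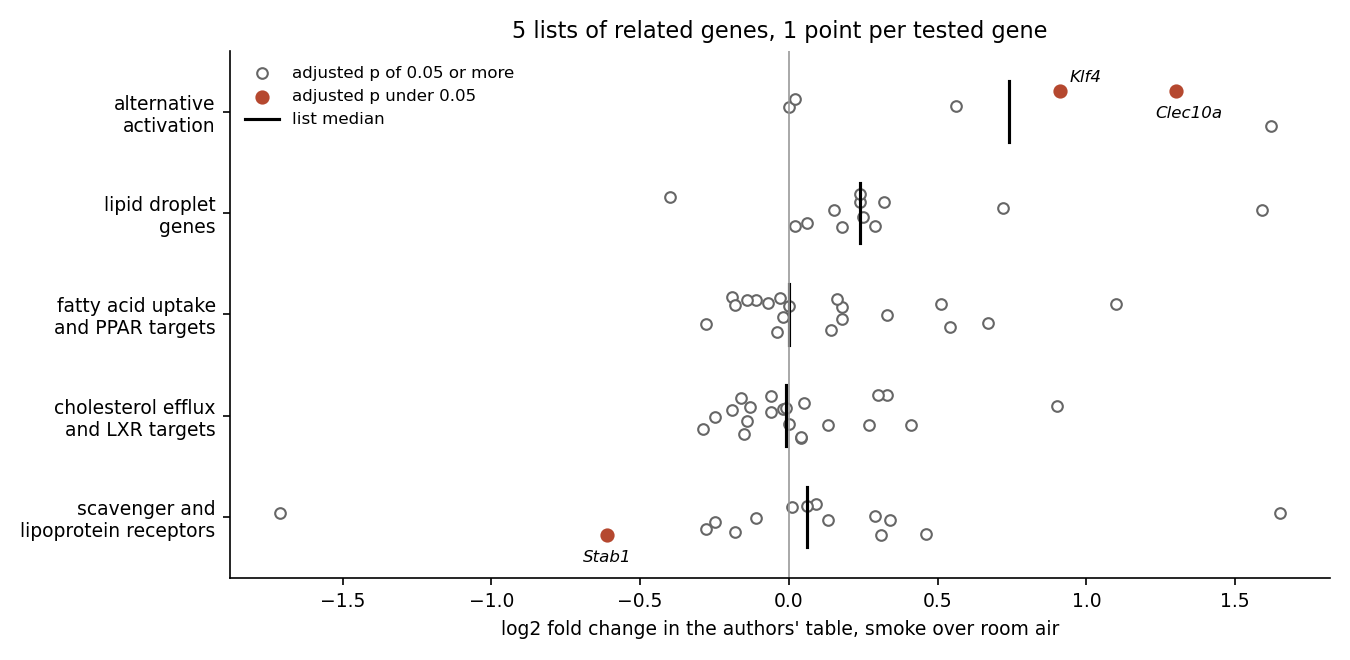
Log2 fold change of smoke over room air in the authors' deposited table for each tested gene of the 5 lists (the 10 genes themselves are not in them), with each list's median as a vertical bar. Stab1 is the only filled point left of 0, and Klf4 and Clec10a are the filled points right of 0.

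The label of the cells was borne out by their markers: all 10 macrophage markers were listed and tested, their summed group means were 60234 in room air and 64106 in smoke, and none passed an adjusted p of 0.05. None of 7 adipocyte and none of 6 erythroid markers was listed. Summed means of neutrophil markers were 0.122 and 0.195, of B cell markers 6.68 and 4.14, and of T or NK cell markers 32.0 and 24.5. Stromal markers summed to 47.1 in room air and 10.1 in smoke, with estimates below 0 for 6 of 6 tested. Of the room air reads that could be recovered, the deepest library held 27 of 28 for Pdgfra, 10 of 10 for Col3a1, 8 of 9 for Cxcl12 and 16 of 25 for Pdgfrb. The reads of Col1a1 and Col1a2, whose means of 15.3 and 22.5 made up most of the room air sum, could not be recovered. Osteoclast markers summed to 152 and 498, mostly through Atp6v0d2 (111 and 430.0), and dendritic markers to 32.5 and 109, mostly through Itgax (31.7 and 108). Of the neutrophil markers 2 of 8 were listed and 0 tested, and of the B cell markers 4 of 6 and 0. Of the T or NK cell markers 2 of 6 were listed and 1 tested, and of the dendritic markers 4 of 6 and 1. Of 7 osteoclast markers 6 were listed and 5 tested. None of the tested markers passed an adjusted p of 0.05, and the part of all these markers in the levels of the 10 genes was not tested. In a bulk sample, fewer cells of a type and less RNA per cell cannot be told apart.

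JuncBASE listed 9 events in 5 of the 10 genes: 5 in Cd36 and 1 each in Msr1, Mrc1, Abca1 and Plin2. None passed an adjusted p of 0.05 in a limma test on the log2 odds of inclusion over all 10376 events, where 0% passed. The lowest adjusted p among the 9 was 0.215 by limma and 0.664 for the corrected p in the authors' deposited table. At an unadjusted limma p under 0.05, 2 of the 9 passed, where 10.8% of all events did, and they are the same choice of splice site in Cd36 counted from either side. Read coverage behind the levels is unknown, and events without a value show how unequal the libraries were: 398, 7 and 1 events lacked a value in room air replicates 1 to 3 and 4169, 189 and 50 in smoke replicates 1 to 3.

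The choice between the ends of Msr1, shown above, differed between the groups by less than the spread between libraries. The level sets the join of the shared exon to the proximal last exon, the end of the type II receptor, against its join to the distal exon or to an unannotated site 11 bases before the proximal one. It was 80.4%, 71.0% and 74.2% in the room air libraries and 70.8%, 81.6% and 70.9% in the smoke libraries. In each group 1 library lay above 80% and the other two below 75%, so the groups overlapped. The means were 75.2% ± 4.77 (SD, n = 3) and 74.5% ± 6.20 (SD, n = 3), so the smoke mean minus the room air mean was -0.73 percentage points. The limma estimate was -0.04 log2 odds (SE 0.50, adjusted p 0.971), and it changed sign to 0.16 without room air replicate 1, to 0.10 without smoke replicate 1 and to 0.09 without smoke replicate 3.

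**Figure D4:**
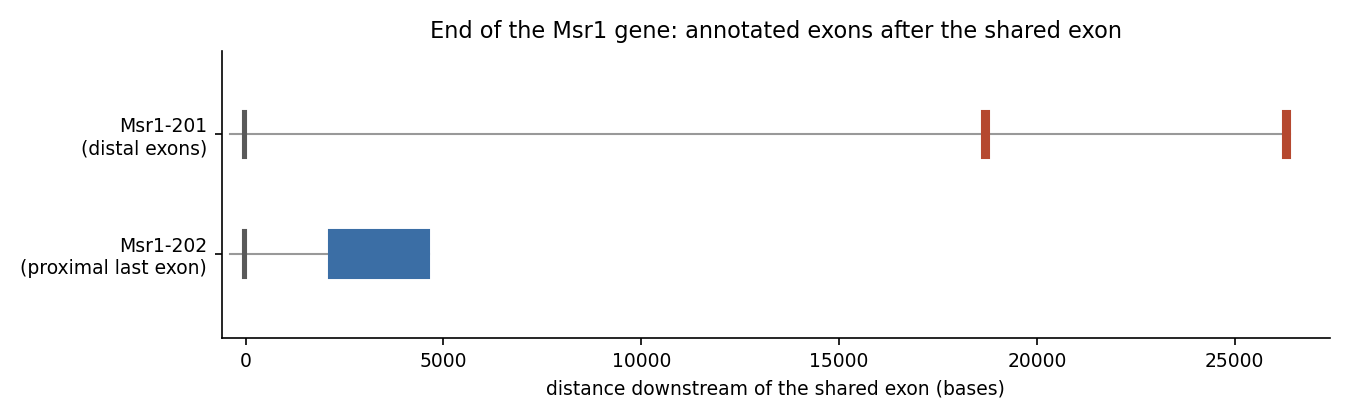
Annotated exons at the end of Msr1, drawn to scale as the distance in bases downstream of the shared exon (grey). Msr1-202 ends in the proximal last exon of 2529 bases (blue), and Msr1-201 continues to 2 distal exons of 189 and 181 bases (red).

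In Cd36 the exon that follows the cassette began mostly at its annotated first base. The level of that choice was 94.6%, 97.1% and 98.3% in the room air libraries and 100% in each smoke library. Every smoke library was thus above every room air library, and the remainder in room air, 5.41%, 2.94% and 1.68%, started 4 bases later, after the bases GTAG. The means were 96.7% ± 1.9 (SD, n = 3) in room air and 100.0% ± 0 (SD, n = 3) in smoke. The difference was 2.08 log2 odds by limma (SE 0.51), or 3.34 percentage points, with an unadjusted p of 0.00541 and an adjusted p of 0.215. Because the smoke libraries are at 100%, the size in log2 odds depends on the pseudocount of 1 percentage point: it was 2.87 (adjusted p 0.111) with 0.5 and 0.76 (adjusted p 0.446) with 5. The two-sided p of an exact permutation test was 0.1, the smallest possible for 3 libraries against 3. Among events with a value in all 6 libraries the groups did not overlap in 23.1%, and in the 10 genes they did not in 2 of 8, the same choice counted from either side. The estimate for Cd36 RNA, -0.85 on the log2 scale, did not pass the test (adjusted p 0.204), and its part in this difference was not tested.

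The other choices in Cd36 overlapped between the groups. The 54-base cassette exon in the 5' untranslated region was included at 57.5%, 60.0% and 56.9% in room air and at 65.4%, 56.8% and 78.4% in smoke. Smoke replicates 1 and 3 were above every room air library and smoke replicate 2 was below them all. The means were 58.1% ± 1.64 (SD, n = 3) and 66.8% ± 10.9 (SD, n = 3), with a limma difference of 0.57 log2 odds (SE 0.53, adjusted p 0.635). It was 0.18 without smoke replicate 3 and 0.89 without smoke replicate 2. The form of the first coding exon that keeps the bases TAG stood, by junction reads, at 85.8%, 86.7% and 81.7% in room air and at 90.9%, 83.9% and 86.8% in smoke. These ranges overlapped, with means of 84.7% ± 2.67 (SD, n = 3) and 87.2% ± 3.51 (SD, n = 3) and an adjusted p of 0.775 by limma, and the estimate of 0.30 log2 odds was 0.06 without smoke replicate 1, 0.14 without room air replicate 3 and 0.50 without smoke replicate 2. The same choice counted with exon reads gave 73.4% ± 3.96 (SD, n = 3) and 77.3% ± 5.75 (SD, n = 3) and an adjusted p of 0.769 by limma.

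Plin2 was spliced from its main first exon to the exon after it (junction chr4:86668706-86669944) in 87.5%, 84.6% and 83.8% of the counted junction reads in room air and in 84.1%, 90.9% and 84.5% in smoke. The groups overlapped, with means of 85.3% ± 1.96 (SD, n = 3) and 86.5% ± 3.82 (SD, n = 3), a limma difference of 0.17 log2 odds (SE 0.48) and an adjusted p of 0.886. The estimate became -0.11 without smoke replicate 2. Of the 6 competing junctions 1 is annotated, that of Plin2-207, and another begins 47043 bases upstream of the annotated start of the gene.

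In Mrc1 an event at a donor site (chr2, base 14304152) concerned a single coding base, and its annotated form stood at 100% in 5 of the 6 libraries and at 94.7% in smoke replicate 1. Its adjusted p by limma was 0.623, and without smoke replicate 1 no library was below 100%. In Abca1 the annotated start of a coding exon competed with an unannotated one 69 bases further in (chr4:53049065-53049133). The annotated form stood at 100%, 100% and 94.3% in room air and at 100% and 98.6% in smoke replicates 1 and 3, with no value in replicate 2. The adjusted p for Abca1 was 0.910 by limma, and the estimate of 0.30 log2 odds (SE 1.08) became -0.64 without room air replicate 3.

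**Figure D5:**
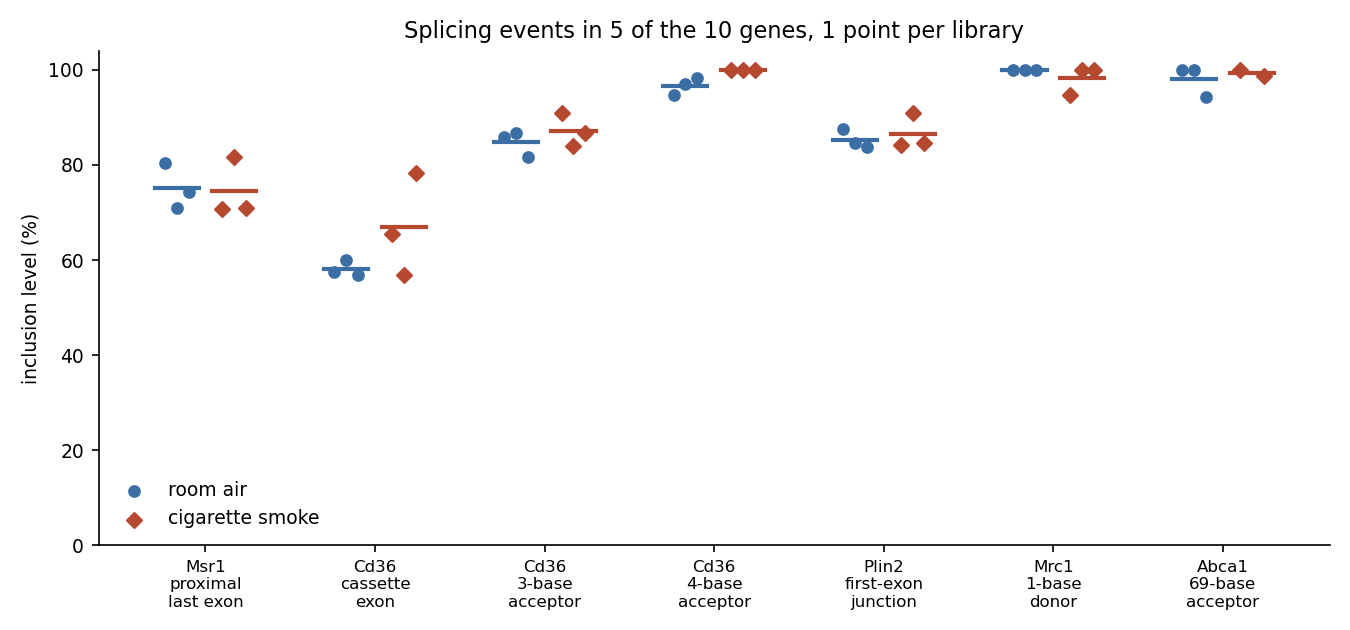
Inclusion level (%) of 7 splicing events in 5 of the 10 genes, 1 point per library, with a bar at each group's mean; the same Cd36 choices counted another way are left out. Every smoke library is above every room air library for the 4-base acceptor of Cd36 alone.

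Of 3305 retained introns listed by JuncBASE none was in the 10 genes. rMATS compared 4 introns of them, 1 in Mrc1 and 3 in Apoe, and by the authors' deposited table none passed a false discovery rate of 0.05, where 14.5% of the introns did. The lowest was 0.136, for an unannotated intron of Apoe (chr7:19697104-19698187, 1084 bases) that overlaps coding sequence. Its difference between the sample sets in the authors' deposited table was 0.5 percentage points in size, and which set is smoke is not stated in the sources used here. The other introns of Apoe and that of Mrc1 (chr2:14329925-14330921) had a false discovery rate of 1.00 and differences of at most 0.3 percentage points in size in the authors' deposited table.

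The authors' merged transcript annotation, assembled from libraries that it does not name, showed how much of the structure of these genes was known. For Marco and Nr1h3 every assembled intron was annotated in GENCODE M21, 17 and 10 introns. For Mrc1, 29 assembled introns were annotated and 37 were not, and for Abca1 49 and 52. Cd36 had 10 assembled spliced transcripts, 4 of them with an annotated chain of introns, Msr1 had 14 with 4, Apoe 18 with 8, and Plin2 12 with 4. Pparg had 8 with 3 and Abcg1 3 with 2.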

How the data were processed

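The authors deposited group means of size-factor-normalized counts as a signal over libraries, with log2 fold changes, a Wald score and p-values, from DESeq2 on 24 libraries, per the file headers. They deposited percent inclusion levels for each JuncBASE event and library, and rMATS differences with p-values. STAR, DESeq2, SAMtools 1.9, bedtools 2.27.1 and mm10 are named, with no role, per the submitters' processing notes, and strand use in counting is not given in the sources used here. The authors' columns of rMATS counts and levels per sample (6) were not used, since the groups of their sets are not stated.

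The 10 genes and all lists were chosen with earlier results of these data known. The authors' comparison was used as deposited at an adjusted p of 0.05; 95% intervals are the fold change and its normal interval from the deposited SE. The named genes of the lists are those past that threshold, up to 6 a list, or else the one with the highest mean; 1 gene of the lists is not reported here and is left out of their counts. Levels per kb divide by the longest GENCODE M21 transcript (GRCm38). Splines of 4 degrees of freedom in GC content and log2 length were fitted to the fold changes (weighted least squares; statsmodels 0.14.6, patsy 1.0.2), and residuals were tested with the deposited SE. Tested on simulated data of 12071 genes, 92.0% of the 200 genes with a log2 change of 2 were recovered and 7 others called. Reads per library were recovered where a group mean was below 5: all of 6303 room air and 5910 smoke means (100.0%) were sums of whole reads within 1e-05. 1 read was worth 0.200, 0.129 and 0.122 in the room air mean and 0.503, 0.313 and 0.098 in the smoke mean, so the smoke libraries differed 5.16-fold in depth and the room air libraries 1.64-fold. These libraries could not be tied to replicate numbers.

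Inclusion p in percent was tested as log2((p + 1)/(100 - p + 1)) with limma 3.58.1 in R 4.3.3, with Benjamini-Hochberg adjustment over 10376 events. Tested on simulated data of the same 10376 events, it recovered 0% of changes of 2 log2 odds, 37.5% of 4, 69% of 6 and 87% of 8. Events were taken where they overlap a gene on its strand; the Msr1 event has no strand in the file and was taken by position alone, and a competing junction of the Plin2 event reaches beyond the gene.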

Additional observations from a re-analysis of the deposited data

How the results depend on the processing

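Of 60 alternative values of the 10 fold changes, 59 kept their direction and those with a test stayed on their side of the threshold (the ratios of group means have none), and Plin2 went from 0.12 to -0.06 with the GC and length trend removed. The count of the 10 genes that passed went from 0 to 1 at an adjusted p under 0.1. Over all genes 929 calls became 154 with the trend removed, 366 at 0.01 and 1547 at 0.1, and 565 rMATS introns became 302 at 0.01 and 172 with a difference of at least 10 percentage points. No event in the 10 genes passed under any of 12 alternatives. Over all events the limma count of 0 became 5 on the percent scale, 23 with values in all 6 libraries, 5 at mean levels from 5% to 95%, and 0 to 717 when a library was left out, with 717 without smoke replicate 3; the cause was not tested. Of 101 alternative values of events in the 10 genes 5 changed sign, all with a library left out: Msr1 from -0.04 to 0.16, 0.10 and 0.09 (range -0.32 to 0.16), Abca1 from 0.30 to -0.64 (range -0.64 to 0.78) and Plin2 from 0.17 to -0.11 (range -0.11 to 0.32). With replicate numbers as a block 0 events passed. Same-numbered libraries deviated with correlations of 0.018, -0.040 and -0.089, and not every library correlated best with its own number. No label pairs the libraries, and with 3 libraries in each group these correlations cannot decide whether equal numbers mark a pair. Group means allow neither a block nor a left-out library for expression. The depth of single libraries limits low genes such as Marco and rare splice forms.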
